A study of Coturnix japonica with 16 samples.

Results

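Liver RNA of 7 Japanese quail whose codes carried the numbers 4 to 6 was compared with that of 9 quail numbered 1 to 3, out of 16 birds sequenced. The birds numbered 4 to 6 were 3 that received corn oil alone, 2 dosed with 0.5 mg/kg ethinylestradiol and 2 dosed with 5 mg/kg. The birds numbered 1 to 3 were 3 at each of the same treatments. All were 12 weeks old, kept under short days, fasted before dosing and given 1 oral dose into the crop, and the left lobe of the liver was taken. Ethinylestradiol is a synthetic estrogen, and each treatment held different birds.

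The bird numbers were grouped because genes of the Z chromosome had split the birds between 3 and 4 in earlier work on these data. Levels of Z-linked genes are therefore a description here, and tests are given for genes placed elsewhere or without a known place. The labels do not give the sex of a bird. A number may also stand for a cage, a dosing order or a place in the sample preparation, and these cannot be told apart from sex. The classes are called by their numbers throughout.

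In birds the male carries a pair of Z chromosomes and the female a single Z with a W. Unlike the X of mammals, the avian Z is not silenced as a whole in the sex with a pair, and dosage compensation is partial and differs between genes. The bird liver also responds to estrogen by making yolk precursors. W-linked genes could not be identified here, since the gene table used for names lists no W chromosome. Whether any lies among the genes tested without a known place was not tested.

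Library totals were 15825748 to 37957750 estimated counts in birds 4 to 6 and 15172994 to 46192717 in birds 1 to 3. At 5 mg/kg the classes did not overlap in depth, at 15825748 and 18616001 counts in birds 4 to 6 and 30460848 to 46192717 in birds 1 to 3. The part of depth in differences within that treatment was not tested. Library depth, the mitochondrial share, the albumin share and the number of genes at 1 CPM or more (CPM is the count scaled to the library total) did not pass an exact two-sided permutation test within treatments, with p-values of 0.312, 0.694, 0.216 and 0.905. The defining hepatocyte genes were present in every bird, with ALB at 53500 to 156000 CPM and FGB at 3700 to 14600 CPM. Solvent replicate 1, a bird of the numbers 1 to 3, had the most genes at 1 CPM or more (12496, against 11263 to 11965 in the other 15 birds) and stood apart in immune genes.

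Z-linked genes lay lower in birds 4 to 6 in every treatment. Of 903 Z-linked genes in the counts, 619 passed the filter on low counts and 69 had no count at all. The 619 were 573 protein-coding genes, 43 long noncoding RNAs and 3 pseudogenes. Their log2 fold change, birds 4 to 6 over birds 1 to 3, had a median of -0.46, or 0.726-fold. The 12220 autosomal genes that passed the filter had a median of -0.004. A single gene copy against a pair, with no compensation, would give -1.

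**Figure D1:**
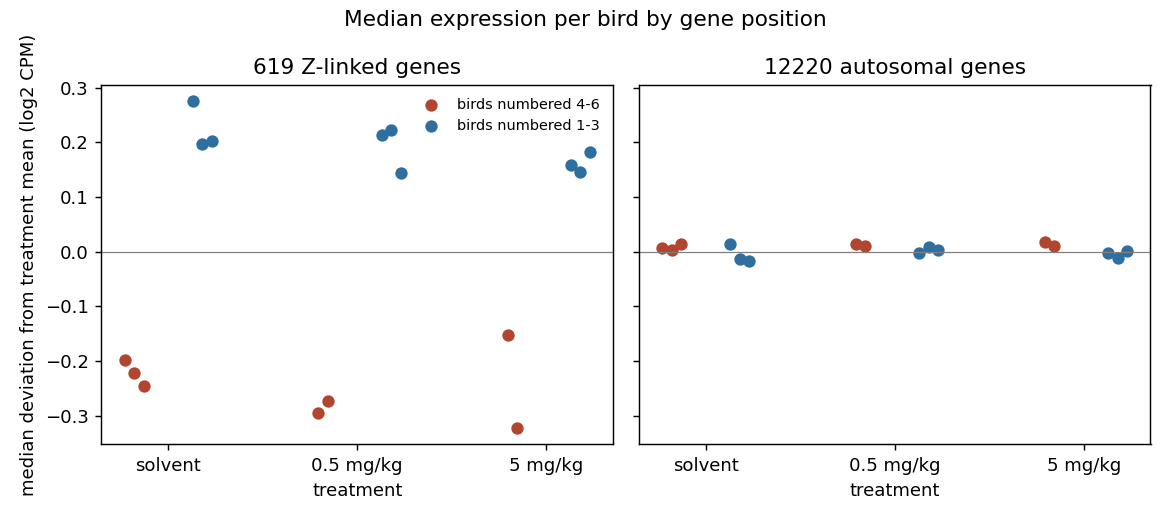
Median deviation of each bird from the mean of its treatment (log2 CPM), over 619 Z-linked genes (left) and 12220 autosomal genes (right), with 1 point per bird, birds 4-6 left of birds 1-3. For Z-linked genes the 7 birds 4-6 sit between -0.322 and -0.152 and the 9 birds 1-3 between 0.144 and 0.275, while autosomal medians stay near 0.

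Each bird was on the same side as the rest of its class. The median deviation of a bird's Z-linked genes from the mean of its treatment was -0.197, -0.222 and -0.245 in solvent birds 4 to 6 and 0.275, 0.196 and 0.203 in solvent birds 1 to 3. At 0.5 mg/kg it was -0.294 and -0.272, against 0.213, 0.223 and 0.144. At 5 mg/kg it was -0.152 and -0.322, against 0.159, 0.146 and 0.182. The birds nearest to the divide were therefore 5 mg/kg replicate 4 among birds 4 to 6 and 0.5 mg/kg replicate 3 among birds 1 to 3. Z-linked genes took 2.51 to 4.53% of a bird's counts in birds 4 to 6 and 4.05 to 4.73% in birds 1 to 3, so the plain share overlapped between classes although the median gene did not.

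The shift was broad and uneven from gene to gene. Of the 619 genes, 527 lay below 0 (85.1%), against 50.8% of autosomal genes. The interquartile range of Z-linked genes ran from -0.77 to -0.17, a width of 0.593, against 0.285 for autosomal genes, although the median SE was alike at 0.187 and 0.181. A log2 fold change of -1 or less was found for 47 genes, -1 to -0.75 for 116 and -0.75 to -0.5 for 121. Another 145 lay between -0.5 and -0.25 and 98 between -0.25 and 0, while 92 lay above 0. Below -0.5 were 45.9% of Z-linked and 5.86% of autosomal genes.

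**Figure D2:**
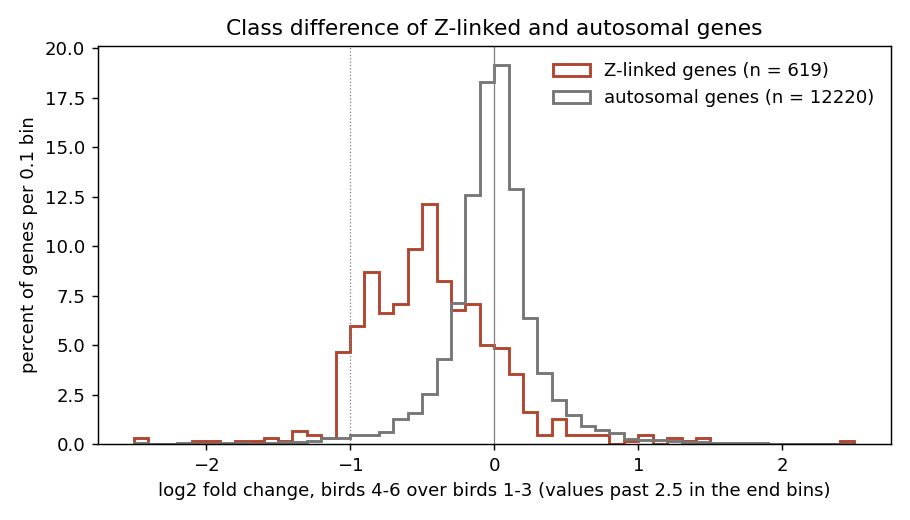
Distribution of the log2 fold change, birds 4-6 over birds 1-3, as percent of genes per bin of 0.1, for Z-linked (red) and autosomal (grey) genes, with the dotted line at -1. The Z-linked curve centres on -0.46 and is wider than the autosomal curve, which centres on 0.

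In edgeR's quasi-likelihood test over all 13973 genes, 172 genes passed an adjusted p of 0.05 (1.23%), 161 lower (1.15%) and 11 higher (0.0787%) in birds 4 to 6. Of the Z-linked genes 152 were lower (24.6%) and 2 higher (0.323%). Because these genes defined the split, their count is printed beside the background and nothing is read from it. For 88 Z-linked genes (14.2%) all 7 birds 4 to 6 lay below all 9 birds 1 to 3, against 91 of all 13973 genes (0.651%).

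ATP5F1A, RPS6 and MRPS30 were among the Z-linked genes whose classes did not overlap, while RPL37, another ribosomal protein gene of the Z chromosome, lay at -0.18 (SE 0.14). All genes of this paragraph and the next, except ATP5F1A, were named after their values were seen. ATP5F1A was named because it passed the threshold among listed genes with a partner on the W chromosome in chicken. ATP5F1A, the alpha subunit of mitochondrial ATP synthase, was at 404, 497 and 627 CPM (lowest, median and highest) in birds 4 to 6 and at 755, 1110 and 1410 CPM in birds 1 to 3, a log2 fold change of -1.10 (SE 0.15). RPS6, a protein of the small ribosomal subunit, averaged 314 ± 23.8 CPM in birds 4 to 6 (SD, n = 7) and 571 ± 86.2 CPM in birds 1 to 3 (n = 9). MRPS30, of the mitochondrial ribosome, had 20.4, 24.5 and 28.5 CPM in birds 4 to 6 and 37.7, 51.6 and 55.0 CPM in birds 1 to 3 (-0.95, SE 0.08). In each of these 3 genes the highest bird of 4 to 6 lay below the lowest bird of 1 to 3.

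FOCAD, focadhesin, varied little among birds 4 to 6, at 7.10, 6.69 and 6.92 CPM in solvent birds, 7.17 and 7.52 CPM at 0.5 mg/kg, and 7.56 and 7.73 CPM at 5 mg/kg. In birds 1 to 3 it lay between 13.1 and 24.2 CPM (log2 fold change -1.26, SE 0.11). FOCAD has 4 transcript rows, and 1 of them held most of the gap, at 1.18 ± 1.49 CPM in birds 4 to 6 and 9.87 ± 3.95 CPM in birds 1 to 3, while another was at 5.91 ± 2.04 and 7.33 ± 4.51 CPM. PIK3C3, the lipid kinase that starts autophagosomes, was at 9.68 ± 1.36 CPM in birds 4 to 6 and 19.4 ± 1.69 CPM in birds 1 to 3. MRPL50, PLAA and the nuclear pore protein NUP155 lay at -0.86, -0.83 and -0.76, and in each the classes did not overlap.

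**Figure D3:**
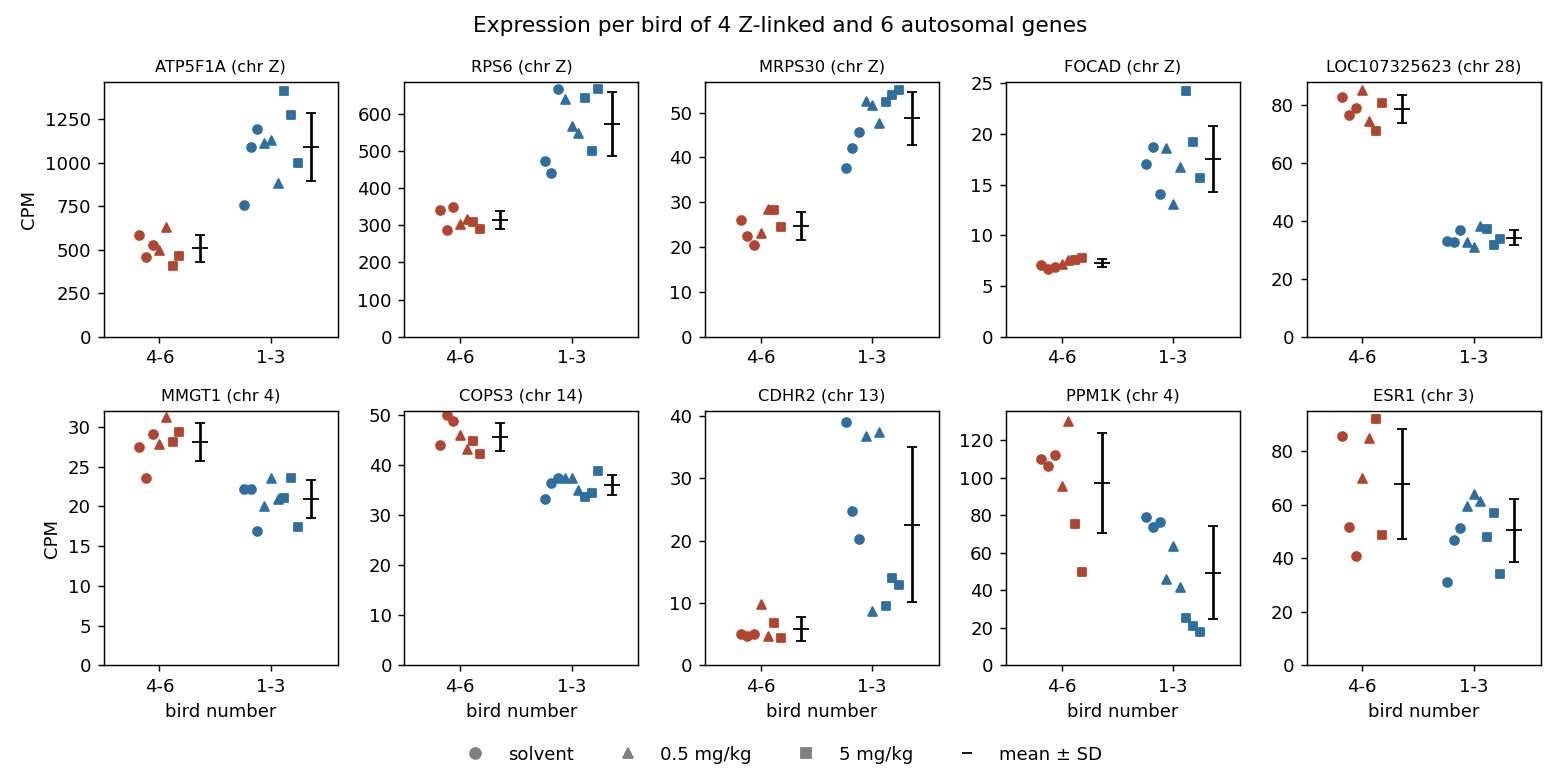
CPM in each bird for 4 Z-linked genes (ATP5F1A, RPS6, MRPS30, FOCAD) and 6 autosomal genes, birds 4-6 left of birds 1-3, with the mean and SD in black and the treatment as the marker. The Z-linked 4 and LOC107325623 and COPS3 do not overlap between classes, whereas PPM1K and ESR1 do.

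Z-linked genes with a role in the liver were lower much as Z-linked genes in general were. Of 34 tested, 30 lay below 0, beside 85.1% of all Z-linked genes, with a median of -0.447 beside -0.462. Of the 34, 5 passed as lower, beside 24.6% of all Z-linked genes. Nothing is read from these passes, since Z-linked genes defined the split. AGXT2, AMACR and HSD17B4 were named because they passed the threshold. AGXT2, a mitochondrial aminotransferase, averaged 96.2 ± 22.1 CPM in birds 4 to 6 (n = 7) and 161 ± 17.7 CPM in birds 1 to 3 (n = 9). AMACR, a racemase of bile acid and branched fatty acid breakdown, averaged 62.3 ± 7.98 and 96.3 ± 13.6 CPM, and HSD17B4, a peroxisomal enzyme of fatty acid breakdown, 306 ± 46.4 and 548 ± 132 CPM. AGXT2 did not overlap between classes, and AMACR and HSD17B4 did.

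The growth hormone receptor GHR was at 670 ± 140 CPM in birds 4 to 6 and 926 ± 275 CPM in birds 1 to 3 (-0.48, SE 0.21). VLDLR, the lipoprotein receptor that takes up yolk precursors in the oocyte, was at -0.39 (SE 0.21) and lipoprotein lipase LPL at -0.29 (SE 0.40). STARD4, an intracellular cholesterol carrier, was lower, at -1.03 (SE 0.22), with 30.9 ± 7.06 CPM in birds 4 to 6 and 65.7 ± 28.8 CPM in birds 1 to 3. The terminal complement genes C6 and C7 lay at -0.90 (SE 0.27) and -0.92 (SE 0.26).

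Some abundant liver transcripts of the Z chromosome lay near 0. PSAT1, of serine synthesis, stood at 0.04 (SE 0.21) and SELENOP, the plasma selenoprotein, at 0.22 (SE 0.19). Of 47 Z-linked genes at 100 CPM or more, 40 lay below 0 and the median was -0.422. In 3 classes of equal size by expression level, from low to high, the median was -0.467, -0.548 and -0.405.

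Genes that have a partner on the W chromosome in chicken were also lower. Of 23 such Z-linked genes tested, 21 lay below 0, beside 85.1% of all Z-linked genes. Their median was -0.349, beside -0.462 for all Z-linked genes. ATP5F1A, given above, was among them, at -1.10 (SE 0.15). ATP5F1A and TXNL1 were named because they passed the threshold. HINT1, a nucleotide hydrolase, averaged 48.1 ± 7.50 CPM in birds 4 to 6 and 81.2 ± 10.8 CPM in birds 1 to 3. SPIN1, a reader of histone marks, averaged 21.3 ± 3.90 and 36.3 ± 5.93 CPM, and TXNL1, a thioredoxin-like protein, 38.1 ± 2.98 and 56.6 ± 6.75 CPM. The chromatin remodeller CHD1, whose Z and W copies are used to sex birds, was closer, at 20.9 ± 3.0 and 24.4 ± 2.59 CPM (-0.24, SE 0.10), and the signal transducer SMAD2 lay at -0.25 (SE 0.09). UBAP2, a ubiquitin-associated protein, was at 14.0, 15.4 and 18.8 CPM in birds 4 to 6 and at 19.5, 21.0 and 25.1 CPM in birds 1 to 3, with no overlap. Whether reads from a W copy were counted on these genes was not tested.

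DMRT1, the Z-linked gene needed for testis formation in chicken, had wholly overlapping classes. It was at 43.3, 49.3 and 77.5 CPM (lowest, median and highest) in birds 4 to 6 and at 30.5, 48.7 and 84.4 CPM in birds 1 to 3, and 4 of 7 birds 4 to 6 lay above the median of birds 1 to 3. All of its counts came from 1 of 2 transcript rows.

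2 Z-linked genes (0.323%) had every bird of 4 to 6 above every bird of 1 to 3, against 8 of all 13973 genes (0.0573%). Nothing is read from that share, since genes of this chromosome defined the split. LOC107306102, a long noncoding RNA between SLC1A1 and CDC37L1, had 24, 12 and 29 counts in solvent birds 4 to 6. In birds 4 to 6 it had 12 and 7 counts at 0.5 mg/kg and 4 and 9 at 5 mg/kg. It had 0 counts in each of the 9 birds 1 to 3, so it passed the filter on low counts only through birds 4 to 6. With 97 counts in birds 4 to 6 against a floor of 3 counts over the group of birds 1 to 3, it was at least 49-fold higher in birds 4 to 6. Both neighbours were counted in both classes, at 0.23 (SE 0.42) for SLC1A1 and 0.01 (SE 0.15) for CDC37L1. SEC11C, a signal peptidase subunit, was at 41.6, 49.4 and 55.1 CPM in birds 4 to 6 and at 30.7, 37.7 and 39.7 CPM in birds 1 to 3 (0.41, SE 0.08).

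The extremes by size of change are given for Z-linked genes that have a symbol and average 1 CPM or more in either class, and most were noisy. CDKN2B, a cell cycle inhibitor, had the lowest value of these at -2.76 (SE 1.42). In birds 1 to 3 it reached 94.4 CPM in solvent replicate 1 and 62.6 CPM in 5 mg/kg replicate 3. The median of that class was 0.706 CPM, against 1.34 CPM in birds 4 to 6. The lipid droplet protein PLIN2 was at -1.34 (SE 0.59), with up to 1860 CPM in a bird 1 to 3 and up to 436 CPM in a bird 4 to 6. SMC2, ARHGEF28 and PPIC lay at -1.98, -1.52 and -1.37, and TUSC1, with less spread, at -1.40 (SE 0.26). At the other end of the same genes lay FAM189A2 at 1.48, the activin antagonist FST at 1.39, RAB3C at 1.24, RFESD at 1.08, CCDC152 at 0.62 and the receptor ROR2 at 0.61. Classes overlapped in each of these 6.

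The shift ran along the whole Z chromosome. In runs of 20 neighbouring tested genes, 31 in all with 19 genes in the last, each run had a median below 0. The lowest was -0.817, from POLK to MAP1B, where 19 of 20 genes lay below 0 and 7 had classes that did not overlap. The highest was -0.214, from SEMA6A to GRAMD2B, where 18 of 20 lay below 0 and none was separated. Over the 28 other chromosomes and linkage groups with 100 tested genes or more, medians ran from -0.028 to 0.06. Chromosome 16, with 36 tested genes, had a median of -0.25, which was -0.067 without solvent replicate 1.

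**Figure D4:**
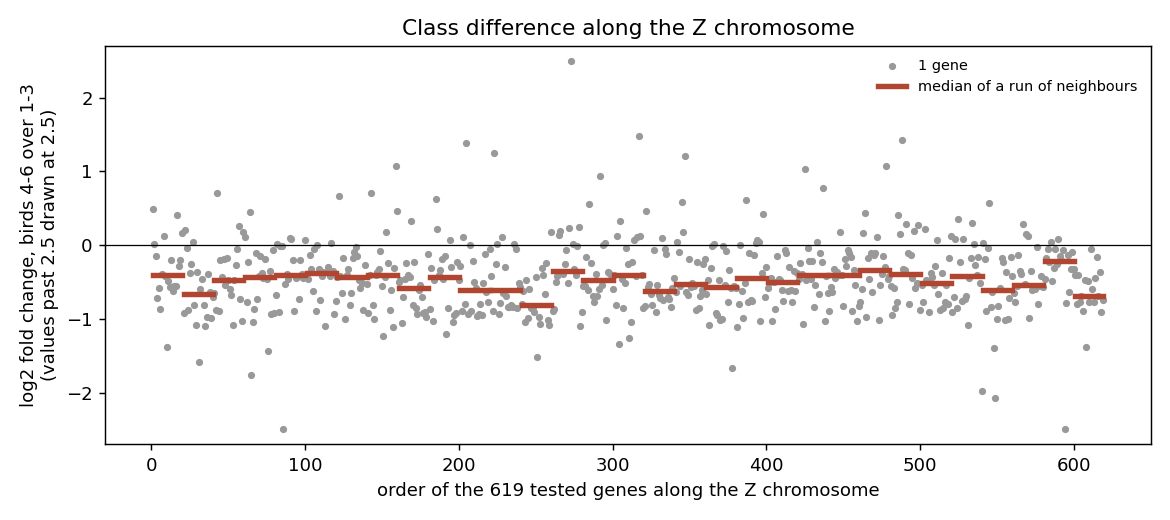
Log2 fold change, birds 4-6 over birds 1-3, of the 619 tested Z-linked genes in chromosome order (grey points), with the median of each run of 20 neighbours as a red bar. All 31 bars lie below 0, between -0.817 and -0.214.

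The difference was present in each of the 3 treatments, which share no bird. Z-linked levels of these same birds chose the split, so this is a description and not a replication. The Z-linked median was -0.518 in solvent birds, -0.48 at 0.5 mg/kg and -0.432 at 5 mg/kg, with 528, 514 and 476 of the 619 genes below 0. A gene lay lower in all 3 treatments for 404 genes (65.3%), against 14.6% of autosomal genes, and higher in all 3 for 28 (4.52%, against 15.7%). Across the 382 Z-linked genes at 5 CPM or more, Spearman's rho between treatments was 0.603 for solvent and 0.5 mg/kg, 0.492 for solvent and 5 mg/kg and 0.515 for the 2 doses. Across 7925 autosomal genes at that level it was 0.144, 0.158 and 0.013. Genes are not independent replicates, and these coefficients describe the genes only.

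**Figure D5:**
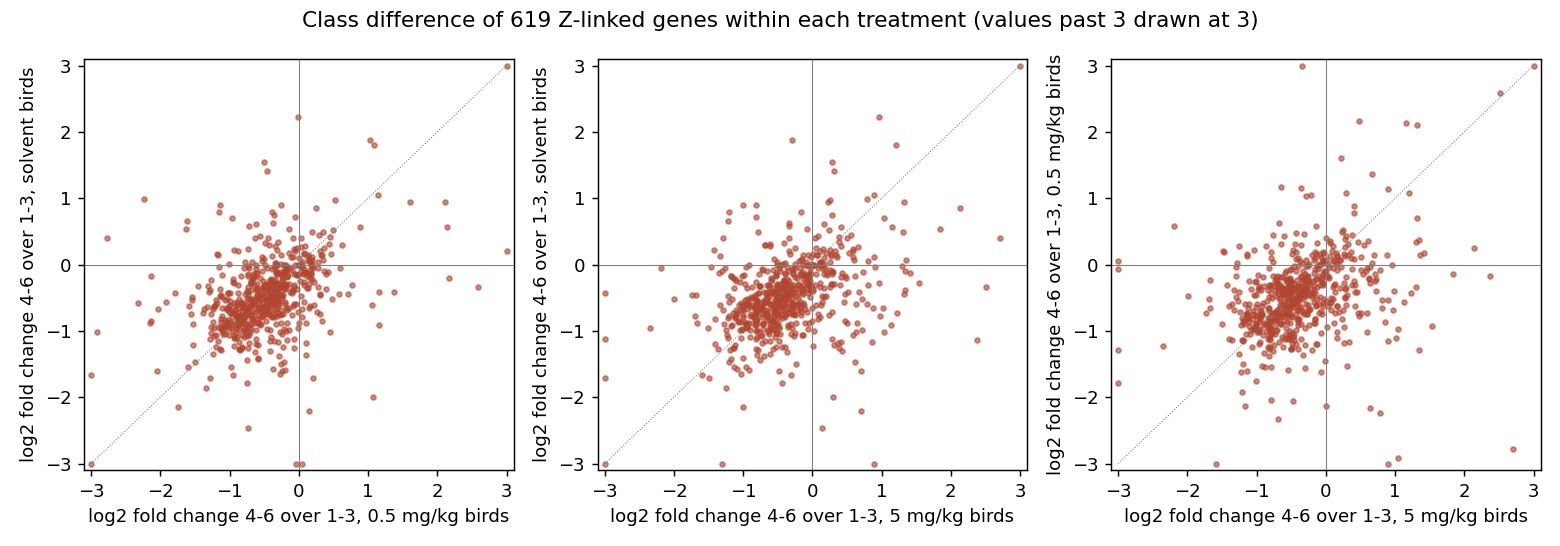
Log2 fold change, birds 4-6 over birds 1-3, of the 619 Z-linked genes within 1 treatment against another, with the dotted line marking equal values. Most points fall below 0 on both axes in each panel, and 404 genes are below 0 in all 3 treatments.

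A test of whether the class difference depended on treatment called 0 of 13973 genes in edgeR (0%), with 511 at an unadjusted p under 0.05 (3.66%), 15 of them Z-linked (2.42%) and 437 autosomal (3.58%). DESeq2's likelihood ratio test, run without the filter on low counts, called 21 of 18808 genes that had a p-value. Within single treatments, with 3 and 3 or 2 and 3 birds, edgeR called 1 gene in solvent birds (0.00716%), 1 at 0.5 mg/kg (0.00716%) and 3 at 5 mg/kg (0.0215%).

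Outside the Z chromosome, 1 gene stood out. LOC107325623, a protein-coding gene of chromosome 28 without a symbol, was at 83.0, 76.7 and 79.0 CPM in solvent birds 4 to 6 and at 33.0, 32.6 and 37.0 CPM in solvent birds 1 to 3. It was at 85.2 and 74.6 CPM at 0.5 mg/kg in birds 4 to 6, against 32.8, 31.0 and 38.4 CPM in birds 1 to 3. At 5 mg/kg it was at 71.0 and 80.7 CPM in birds 4 to 6, against 37.2, 31.8 and 33.7 CPM. All 7 birds 4 to 6 thus lay at close to the same level, above all 9 birds 1 to 3. The gene rose 2.30-fold in birds 4 to 6 (log2 fold change 1.20, SE 0.08; edgeR adjusted p 9.39e-07), with log2 fold changes of 1.22, 1.23 and 1.15 in the 3 treatments. Within treatments its adjusted p was 0.00611, 0.0152 and 0.0325 in edgeR when the spread was shared over all 16 birds. It did not pass in any treatment fitted on its own birds alone, with edgeR adjusted p-values of 0.219, 0.386 and 0.874.

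The counts of LOC107325623 lay on 4 transcript rows, and the 3 that carried counts in every bird were each higher in mean in birds 4 to 6. These were at 52.8 ± 5.21, 9.08 ± 3.16 and 16.7 ± 2.93 CPM in birds 4 to 6 and at 21.6 ± 3.05, 4.2 ± 1.24 and 8.57 ± 1.93 CPM in birds 1 to 3. Its neighbours did not pass. ABHD17A, next to it, was at 0.40 (SE 0.12, edgeR adjusted p 0.203), and SCAMP4, on its other side beyond LOC107325652, was at 0.28 (SE 0.10, edgeR adjusted p 0.286). LOC107325623 was chosen for naming after its values were seen.

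In all, 15 of 12220 autosomal genes passed (0.123%), 9 higher (0.0736%) and 6 lower (0.0491%) in birds 4 to 6. The adjustment ran over all genes, Z-linked ones included, and adjusted over autosomal genes alone only LOC107325623 passed (0.00818%). The largest unadjusted p among called genes was 0.000615, at which 7.52 autosomal genes are expected from evenly spread p-values, so the other 14 are given with that limit. At an unadjusted p under 0.05 were 893 autosomal genes (7.31%), 540 higher (4.42%) and 353 lower (2.89%). Leaving out 1 bird changed the count of 15 to 9 for solvent replicate 4, 8 for solvent replicate 5 and 6 for solvent replicate 6. It was 9 when 0.5 mg/kg replicate 4 was dropped, and among the 5 mg/kg birds it was 9 for replicate 1, 9 for replicate 2 and 8 for replicate 5. In 6 autosomal genes (0.0491%) every bird of 4 to 6 lay above every bird of 1 to 3, and in 2 (0.0164%) below.

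Among the higher ones, PPM1K, the phosphatase that switches on branched-chain amino acid breakdown in mitochondria, averaged 97.0 ± 26.7 CPM in birds 4 to 6 (n = 7) and 49.4 ± 24.7 CPM in birds 1 to 3 (n = 9). Its log2 fold change was 1.04 (SE 0.16; edgeR adjusted p 0.0026, 0.0604 over autosomal genes alone), with 0.52 in solvent birds, 1.16 at 0.5 mg/kg and 1.56 at 5 mg/kg. All 7 birds 4 to 6 lay above the median of birds 1 to 3. The classes overlapped only across treatments. In solvent birds the lowest of 4 to 6 was at 106 CPM and the highest of 1 to 3 at 79.2 CPM. These were 95.5 and 63.6 CPM at 0.5 mg/kg, and 49.7 and 25.3 CPM at 5 mg/kg. COPS3, a subunit of the COP9 signalosome, had classes that did not overlap, at 45.5 ± 2.86 CPM in birds 4 to 6 and 35.9 ± 2.01 CPM in birds 1 to 3. Its log2 fold change was 0.34 (SE 0.07), with an edgeR adjusted p of 0.021, or 0.344 over autosomal genes alone.

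PPM1K passed in 16 of 16 fits that left out 1 bird, and COPS3 in 13. These fits were adjusted over all genes, including the Z-linked genes that defined the split. MMGT1, a subunit of the endoplasmic reticulum membrane insertion complex, was at 28.1 ± 2.38 CPM in birds 4 to 6 and 20.9 ± 2.42 CPM in birds 1 to 3, and passed in 13 of 16. The calmodulin-like gene CALML4 (0.82, SE 0.18), MFAP3L (1.30, SE 0.29), FAM168B (0.43, SE 0.10) and ZSWIM8, a ubiquitin ligase adaptor (0.48, SE 0.11), passed in 7, 4, 4 and 3 of 16. With all birds and over autosomal genes alone, the edgeR adjusted p was 0.344 for MMGT1 and 0.448 for CALML4, MFAP3L, FAM168B and ZSWIM8.

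Among the lower ones, CDHR2, a cadherin of microvilli, was at 4.36, 4.96 and 9.82 CPM in birds 4 to 6 and at 8.69, 20.3 and 39.1 CPM in birds 1 to 3. Its log2 fold change was -1.91 (SE 0.31, edgeR adjusted p 0.00373, 0.0728 over autosomal genes alone). With adjustment over all genes, CDHR2 passed in 16 of 16 fits that left out 1 bird. Only the highest bird of 4 to 6, 0.5 mg/kg replicate 4, reached into the range of birds 1 to 3. IL20RA, a receptor chain for interleukins, was at 0.384 ± 0.182 CPM in birds 4 to 6 and 1.69 ± 1.70 CPM in birds 1 to 3. The calcium channel ITPR3 was at 3.96 ± 1.54 and 8.66 ± 6.64 CPM, with 26.1 CPM in solvent replicate 1. IL20RA and ITPR3 passed in 5 and 3 of 16 fits. Over autosomal genes alone, the edgeR adjusted p with all birds was 0.448 for each.

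The other 3 lower genes, named after their values were seen, were the ephrin receptor EPHA5 (-1.60, SE 0.37), LOC107321671 (-0.99, SE 0.20) and LOC107321542 (-4.30, SE 0.99). Over autosomal genes alone, their edgeR adjusted p-values were 0.448, 0.339 and 0.448. EPHA5 was near the floor, at 0.129 to 0.304 CPM in birds 4 to 6 and 0.227 to 1.56 CPM in birds 1 to 3. It passed the filter on low counts only through birds 1 to 3. With adjustment over all genes, EPHA5 passed in 3 of 16 fits that left out 1 bird and LOC107321671 in 15. LOC107321542 of chromosome 16 was at 46.7 CPM in solvent replicate 1 and at 0.034 to 16.2 CPM in the other birds 1 to 3, against 0 to 0.852 CPM in birds 4 to 6, and it passed in 5 of 16 fits.

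Of 1121 genes with no chromosome in the gene table or not listed in it, 3 passed (0.268%), all lower in birds 4 to 6, and 94 had an unadjusted p under 0.05 (8.39%). These passes were adjusted over all genes, including the Z-linked genes that defined the split, and no adjustment without those was run here. The autosomal CDHR2, with a lower unadjusted p in edgeR (1.79e-05, against 7.65e-05 to 0.000163 for the 3), did not pass over autosomal genes alone. LOC107307700 was at 2.92 ± 1.02 CPM in birds 4 to 6 and 6.19 ± 3.06 CPM in birds 1 to 3. The genes numbered 107305852 and 107306664 were at 2.39 ± 0.681 and 27.4 ± 3.54 CPM in birds 4 to 6 and at 4.05 ± 0.415 and 38.2 ± 3.98 CPM in birds 1 to 3. In 1 of them, gene 107306664, every bird of 4 to 6 lay below every bird of 1 to 3 (0.0892%). In 0 of the 1121 genes every bird of 4 to 6 lay above. Dropping 0.5 mg/kg replicate 1 or 3 gave a count of 5 or 7 in place of 3, and dropping 5 mg/kg replicate 2 or 4 gave 5 each time. No name or role is given to these genes. The number 107305852 falls between those of the Z-linked genes LOC107305842 and LOC107305866. The number 107306664 falls between those of the Z-linked genes LOC107306660 and LOC107306667. Whether any of these genes lies on the Z chromosome, whose genes defined the split, was not tested.

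Hormone receptors and yolk-related genes outside the Z chromosome did not pass. The estrogen receptor ESR1 was at 41.0, 69.9 and 92.0 CPM in birds 4 to 6 and at 31.1, 51.3 and 64.1 CPM in birds 1 to 3 (0.46, SE 0.18; edgeR adjusted p 0.37). ESR2 was at -0.01 (SE 0.39), the progesterone receptor PGR at 0.15 (SE 0.31) and APOB, the main protein of secreted liver lipoproteins, at -0.23 (SE 0.17). The growth factor IGF1 was at 0.53 (SE 0.36), with -0.30 in solvent birds. Of 18 yolk and estrogen genes tested off the Z chromosome, 7 lay above 0 and 11 below, with a median of -0.038 and 0 past the threshold.

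Of the metabolic lists off the Z chromosome, 0 members of any list passed, beside a median of -0.004 over all autosomal genes. Fatty acid synthesis had 15 of 23 genes below 0 (median -0.138), lipoproteins 17 of 22 (-0.13), fatty acid oxidation 22 of 31 (-0.062) and the acute phase, coagulation and complement 24 of 37 (-0.09). Cholesterol synthesis had 14 of 19 above 0 (0.088), bile acids 9 of 10 (0.149), xenobiotic metabolism 13 of 22 (0.039) and steroid hormone metabolism 7 of 13 (0.084). The secretory pathway had 36 of 53 below 0 (-0.056) and the growth hormone and insulin axis 15 of 27 (-0.023). Hepatocyte factors had 15 of 24 above 0 (0.045), the circadian clock 12 of 20 below (-0.031), and iron and calcium handling 10 of 19 below (-0.055).

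Markers of other cell types also gave 0 genes past the threshold, though red cell markers were uneven between classes. Of 7 erythroid genes off the Z chromosome, 6 lay above 0 with a median of 0.736, among them TAL1 at 1.05 (SE 0.35) and the anion exchanger SLC4A1 at 0.82 (SE 0.34). Their summed level was 277, 477 and 705 CPM (lowest, median and highest) in birds 4 to 6 and 79.5, 243 and 663 CPM in birds 1 to 3. In whole liver, more cells of a type and more RNA per cell cannot be told apart. The part of red cells in the 15 autosomal calls was not tested.

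Macrophage markers had 14 of 14 genes below 0 (median -0.181; summed 472, 657 and 766 CPM in birds 4 to 6 and 454, 691 and 1510 CPM in birds 1 to 3), and lymphocyte markers 10 of 13 (-0.298; 29.7, 40.3 and 43.6 CPM, against 28.5, 34.9 and 156 CPM). Without solvent replicate 1 these medians were -0.092 and 0.056. Endothelial markers had 18 of 24 below 0 (-0.141), stellate cells and fibroblasts 15 of 23 (-0.106), cholangiocytes 7 of 10 (-0.145), adipocytes 6 of 7 (-0.201) and striated muscle 2 of 2 (-0.129). No exocrine pancreas marker passed the filter on low counts.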

How the data were processed

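Left-lobe liver RNA of 16 quail was sequenced. The authors deposited estimated counts for each transcript, from kallisto according to the submitters' processing notes. The version of kallisto, the transcriptome release and the build were not given in the sources used here. Estimated counts of 47418 rows were summed to 20308 genes by NCBI gene number and rounded, a change of at most 0.5 per gene. Kallisto divides reads between similar transcripts, so counts of near-identical or overlapping genes are uncertain. Names, chromosomes and gene order came from the RefSeq gene table of the assembly Coturnix japonica 2.1, which matched 18900 genes. No coordinates or sequences are given.

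Genes were filtered with filterByExpr (minimum count 10, minimum total 15), leaving 13973. Libraries were scaled by TMM. edgeR 4.0.16 fitted a quasi-likelihood model with treatment and number class to all 16 birds (12 residual degrees of freedom; biological coefficient of variation 34.9%), with Benjamini-Hochberg adjustment over all genes and a threshold of 0.05. A fit of the 6 groups gave differences within treatments and the interaction. R 4.3.3, limma 3.58.1 and DESeq2 1.42.0 were used for alternatives. Fits were also run on simulated data, with the same spread for all genes and no treatment effect. Real spreads differ between genes, so no result here rests on that run. Log2 CPM used a prior count of 2. The floor of 3 counts covers counting error only, while the SE and SD values include the spread among birds. At 5 mg/kg the codes of replicates 4 and 5 carry the numbers 5 and 6.

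The comparison, the gene lists and the naming rule were chosen with earlier results of these data known. The rule took a set of genes fixed by name; up to 10 named autosomal genes past the threshold in each direction with at least 1 CPM in a class and 1 direction in all treatments; unplaced genes past the threshold; the Z-linked genes with the most and the least lowering; and up to 3 members past the threshold per list. Others were named after their values were seen. Some genes that the rule took are left out of the text. Alternatives were other scaling, no filter, DESeq2, limma-voom, no treatment term, each treatment alone, leaving out each bird, and 3 added after seeing the data. The labels do not say that equal numbers share a cage or litter, so p-values reflect the spread among these birds alone.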

Additional observations from a re-analysis of the deposited data

Results flagged for a closer look

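A bird of the numbers 4 to 6 or 1 to 3 far from the rest of its class was looked for in each named gene and library measure. Of 126 groups looked at, 7 held such a bird, where chance alone, at about 1 in 20 groups, gives 6.3. In birds 4 to 6, 5 mg/kg replicate 5 had the lowest CCDC152 (1.28 CPM) and ROR2 (0.711 CPM), and ARHGEF28 was at 0.244 CPM in solvent replicate 5. In birds 1 to 3, solvent replicate 1 was the lowest for HINT1 (58.4 CPM) and GHR (355 CPM) and the highest for ITPR3 (26.1 CPM). FAM168B was at 45.1 CPM in 0.5 mg/kg replicate 1, below the other birds 1 to 3.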

How the results depend on the processing

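The class difference called 172 of 13973 genes, and 320 of 18899 in DESeq2. DESeq2 was run without the filter on low counts, and 4532 of its 18899 genes had no adjusted p. Autosomal calls numbered 15 of 12220 genes, and 91 of 16111 in DESeq2 (70 higher, 21 lower, 15 shared). Adjusted over autosomal genes alone, 1 gene was called. With Z-linked genes left out of the fit (added after seeing the data), 1 was called. Autosomal calls numbered 6 to 20 when 1 bird was left out. Unplaced calls numbered 3 of 1121 genes, 16 of 1941 in DESeq2, 6 in limma-voom and 2 to 7 without 1 bird. All of these were adjusted over all genes, Z-linked ones included. Fitted on their own, solvent birds gave 1 call in all and 1 among autosomal genes, VGLL2, and 0 unplaced; 0.5 mg/kg and 5 mg/kg birds gave 0 in each set. The Z-linked median was -0.514 in solvent birds alone and -0.493 to -0.439 when 1 bird was left out. The interaction called 0 of 13973 genes, and 21 of 18808 in DESeq2, again without the filter. With the replicate number as a block, 0 genes were called by title number and 0 by code number. Deviations of birds with the same replicate number in the title, not the code number, had a median correlation of 0.009 across the 6 groups. It ran from -0.092 to 0.218, over 0.1 in 2 of 15 pairs. For different title numbers the median was -0.002 (-0.195 to 0.195), over 0.1 in 8 of 91 pairs. Those pairs include birds of the same treatment in different number classes. Whether equal numbers share a cage, litter or dosing order was not tested. Uncalled genes off the Z chromosome that changed sign included ESR2 (0.49 at 5 mg/kg alone, -0.4 to 0.26 without 1 bird). PGR (-0.06 in solvent and -0.37 at 0.5 mg/kg alone, -0.08 to 0.35 without 1 bird) and IGF1 (-0.29 in solvent alone) also did. Uncalled Z-linked genes changed sign too. At 0.5 mg/kg alone DMRT1 was at -0.14, LPL at 0.29 and CDKN2B at 0.03. VLDLR was at 0.06 at 5 mg/kg alone, and FAM189A2 at -0.33 in solvent alone. The causes of these changes were not tested. Single treatments have fewer birds. LOC107325623 passed in 16 of 16 fits that left out 1 bird, with log2 fold changes of 1.18 to 1.23.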

Other observations

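Antiviral and antigen-presentation genes lay lower in birds 4 to 6 without a gene past the threshold. Of 22 interferon and cytokine genes, 19 were below 0 with a median of -0.479, among them the peptide transporters TAP1 at -1.19 (SE 0.40) and TAP2 at -0.89 (SE 0.32) and the antiviral enzyme RSAD2 at -2.08 (SE 1.56). Without solvent replicate 1, a bird of the numbers 1 to 3, the median was -0.043, an alternative added after seeing the data. The 36 tested genes of chromosome 16, which carries the major histocompatibility complex in chicken, had a median of -0.25, and -0.067 without that bird. Cell cycle genes had 32 of 44 below 0 (median -0.211), and -0.118 without it. The erythroid median, 0.736 with all birds, was 0.724 without it.

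Some autosomal genes separated the classes without passing the threshold, and were named after their values were seen. RBM48, of minor splicing, was at 2.48 ± 0.277 CPM in birds 4 to 6 and 1.73 ± 0.158 CPM in birds 1 to 3, TBC1D20 at 13.6 ± 1.11 and 10.7 ± 0.863 CPM, and GTF2A2, a basal transcription factor, at 9.50 ± 0.999 and 7.97 ± 0.71 CPM, all higher in birds 4 to 6. SPECC1L, at 30.9 ± 1.62 and 39.4 ± 4.74 CPM, and CD2AP, at 39.0 ± 5.60 and 51.4 ± 7.21 CPM, were lower. Their adjusted p-values in edgeR were 0.0538, 0.0631, 0.312, 0.0569 and 0.162 in that order. That adjustment ran over all genes, including the Z-linked genes that defined the split. Over autosomal genes alone none of them passed, and ZSWIM8, with a lower unadjusted p (0.000585), was at 0.448 in edgeR.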
